A study of Mus musculus with 14 samples.

Results

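The genes described here are those that make cholesterol and long-chain fatty acids, together with the SREBP system that controls them. The members are named one by one, and no measured value enters the rule. All 31 of its genes were found among the 23337 genes of the count files. They comprise 7 genes of the mevalonate steps, 3 genes of squalene synthesis and ring closure, 7 genes that turn lanosterol into cholesterol, 5 SREBP control genes, 8 genes of fatty acid synthesis, desaturation and elongation, and the sterol carrier gene Stard4. All 31 passed the filter on low counts in every comparison. RNA-seq had been run on brain tissue of mice labelled Thap1 cKO, in which the transcription factor gene Thap1 was conditionally deleted, and of wild-type (WT) littermates. All mice were on the C57Bl/6 background and 6 months old. The striatum was sampled from 3 WT and 3 cKO libraries, and the cerebellum from 4 WT and 4 cKO libraries. The labels name neither the promoter or cell type that drove the deletion nor the deleted exons. The labels number the samples but do not say which came from the same mouse.

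Cholesterol is built from acetyl-CoA through mevalonate, squalene and lanosterol, and fatty acids are built from the same precursor. The transcription factors SREBP-2 (gene Srebf2) and SREBP-1 (gene Srebf1) switch on these enzymes when membrane sterol is low. They are escorted to the Golgi by the sensor Scap and held back by Insig1 and Insig2. Myelin is rich in cholesterol and in very-long-chain lipids, and because the blood-brain barrier keeps out plasma lipoproteins, oligodendrocytes and astrocytes make these lipids locally.

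Total counts ran from 12595941 to 14258141 per library in striatum and from 19458954 to 28099205 in cerebellum. Thap1 itself checked the labels. Its level in WT striatum was 14, 15.4 and 16.4 CPM (counts scaled to a common library size by the TMM method over all 14 libraries), and in cKO striatum 5.59, 8.14 and 4.02 CPM. In cerebellum the WT libraries stood at 9.85, 7.81, 10 and 7.94 CPM and the cKO libraries at 6.95, 7.07, 7.39 and 6.51 CPM. The groups did not overlap in either tissue. The log2 fold change (cKO over WT) was -1.36 ± 0.23 (SE) in striatum, with an edgeR adjusted p = 0.0562, and -0.34 ± 0.10 (SE) in cerebellum, with an edgeR adjusted p = 0.0488. Striatal neuron markers summed to 9740 to 12000 CPM in striatum, and cerebellar neuron markers to 14800 to 16100 CPM in cerebellum. Choroid plexus markers summed to between 40.6 and 2130 CPM in the WT cerebellum libraries and between 715 and 3450 CPM in the cKO ones.

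Promoter sequences from RefSeq (build GRCm38.p6) were given for 25 of the 31 genes, as windows of 300 bases from 250 before to 50 after each transcription start. Those of Srebf2 and Ebp are shown because both genes fell in the cerebellum (below), and that of Hmgcs1 because it alone held an exact sterol regulatory element, TCACNCCAC, the motif that SREBPs bind. Capitals mark that element, or its closest match, and the CCAAT box on either strand (ATTGG on the strand shown). The Hmgcs1 stretch is chr13:119690171-119690350, plus strand. The Srebf2 stretch is chr15:82147089-82147180, plus strand, ending where GENCODE places the gene's outermost start. The Ebp stretch is chrX:8193513-8193692, minus strand. Each is read 5′ to 3′ along its gene.
Hmgcs1: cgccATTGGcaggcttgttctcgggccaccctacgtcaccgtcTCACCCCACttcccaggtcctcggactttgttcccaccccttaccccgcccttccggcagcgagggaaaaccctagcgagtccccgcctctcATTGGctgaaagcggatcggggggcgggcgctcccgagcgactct
Srebf2: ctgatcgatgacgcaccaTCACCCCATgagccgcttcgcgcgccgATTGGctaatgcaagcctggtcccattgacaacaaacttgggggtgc
Ebp: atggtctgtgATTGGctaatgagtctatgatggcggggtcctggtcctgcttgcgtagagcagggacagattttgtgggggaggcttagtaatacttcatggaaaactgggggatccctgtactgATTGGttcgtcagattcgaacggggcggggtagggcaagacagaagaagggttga
In Hmgcs1 the exact element began 137 bases before the start and lay between CCAAT boxes at 176 and 45 bases. The closest match in Srebf2 began 162 bases before the start and differed from TCACNCCAC by C9T, counted from 1 at the element's 5′ end. Its CCAAT box began at 135 bases. Ebp held CCAAT boxes at 170 and 55 bases and no such match in its window.

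The exact element was found in 1 of the 25 genes with a promoter (4%) and in 1.44% of the 27025 genes in the promoter table. With at most 1 mismatch, a looser search made after the sequences had been read, it was found in 11 of the 25 (44%) and in 26.7% of all genes. The CCAAT box was in 21 of the 25 genes (84%) and 41.1% of all genes. The SP1 box GGGCGG was in 20 (80%) and 38.2%, and the E-box CACGTG in 6 (24%) and 8.09%. The pattern TNNNNGGCA, searched for as a THAP1 motif, was in 8 of the 25 (32%), against 47.2% of all genes. Among the 8 were Fasn, Srebf1, Insig1 and Dhcr7. Srebf2 and Ebp did not hold this pattern, and no promoter was given for Scd1 and Scd2. Other spacings between T and GGCA were not searched, so THAP1 sites with another spacing may have been missed. Both strands were searched for each motif. A match says only that these letters occur in the window.

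In striatum 0 of the 31 lipid synthesis genes passed the test between cKO and WT, while 5 of 15 myelin markers fell. The test was the edgeR quasi-likelihood test with a Benjamini-Hochberg adjusted p under 0.05 over 14080 genes, of which 54 passed, or 0.384%. At an unadjusted p under 0.05 there were 2 of the 31, Tm7sf2 and Elovl1, against 7.24% of all genes. DESeq2 and limma-voom also gave 0 of the 31 at an adjusted p under 0.05. Of the 31 genes 15 lay below 0, where 49.4% of all genes did. Their median log2 fold change was 0.02, and that of all genes tested 0.00. Over the same libraries the 15 markers of mature oligodendrocytes and myelin had a median of -0.68, all 15 were below 0 and 5 fell. Their summed level was 8440 to 10300 CPM in WT and 5430 to 6720 CPM in cKO libraries, with no overlap. Genes that fell made up 0.32% of all genes tested. The 5 markers that fell were Mal, at -1.08, Ermn, Cldn11, Mobp and Gpr37. None of the 15 passed without cKO replicate 1 or 3, 1 passed without WT replicate 3 and 2 without cKO replicate 2, with medians from -0.83 to -0.60 over these fits. In bulk tissue, fewer oligodendrocytes and less myelin RNA in each of them cannot be told apart.

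Of 9 oligodendrocyte precursor markers in striatum 1 fell by edgeR, where 0.32% of all genes did. At an unadjusted p under 0.05 there were 3, all lower, against 7.24% of all genes, and the median was -0.19. Over all genes only 1 fell without cKO replicate 1, and 1 without cKO replicate 3, so this call may not hold there. Of the other cell type markers in striatum, 0 of 12 for astrocytes passed by edgeR, with 2 at an unadjusted p under 0.05. Gfap among them had a log2 fold change of 1.58 ± 0.27 (SE) and an edgeR adjusted p = 0.0593. All 7 endothelial markers were below 0, with a median of -0.32, and their summed level was 227 to 296 CPM in WT and 216 to 243 CPM in cKO libraries. The 6 choroid plexus markers tested were all above 0, and their list summed to 38.2 to 56.9 CPM in WT and 51.8 to 205 CPM in cKO libraries. Of both lists 0 passed by edgeR, with 0 and 1 at an unadjusted p under 0.05. The part of these cell types in the values of the 31 genes was not tested.

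The width of the intervals shows what the 6 striatal libraries could resolve. For 30 of the 31 genes the 95% interval of the log2 fold change lay wholly above the myelin median of -0.68. The exception was Scd1, whose interval reached -0.76. All 17 sterol synthesis enzymes were among the 30, and the lowest bound of any of them was -0.63, for Idi1, which at 1.02 to 1.61 CPM in striatum was the least abundant gene of the list. A fall of the size of the myelin median was therefore outside the interval of each of these 30 genes. For many the bound was nearer to 0, at -0.08 for Hmgcs1 and -0.10 for Fdft1 and Lss. The median SE over the list was 0.13. These are levels of whole tissue, so the intervals do not bound the change within oligodendrocytes alone.

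**Figure D1:**
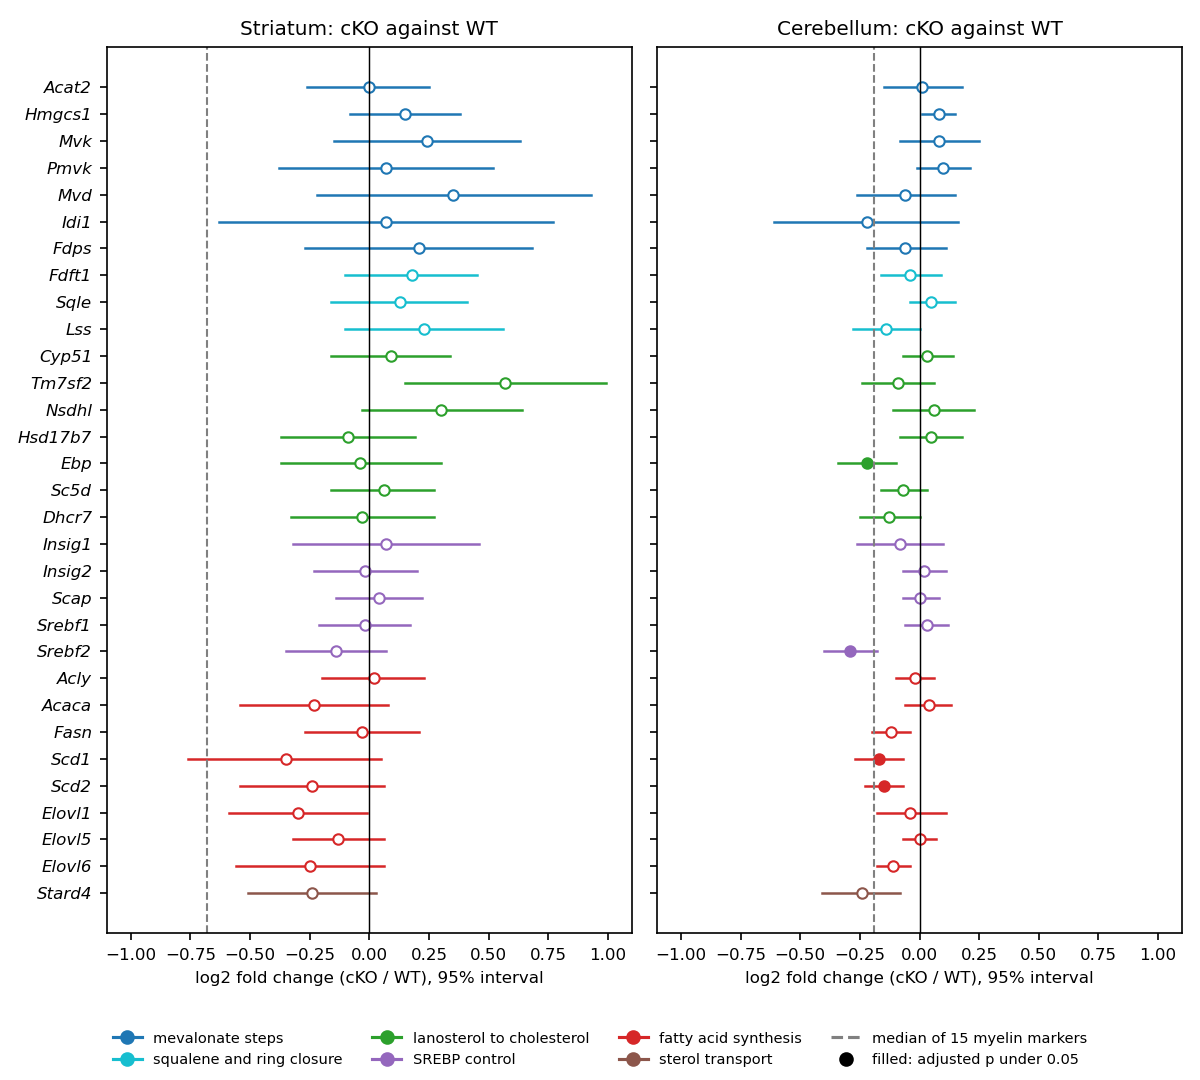
Log2 fold change of cKO over WT for each of the 31 genes, with its 95% interval, in striatum (left, 3 against 3 libraries) and cerebellum (right, 4 against 4), coloured by role; filled points passed an adjusted p of 0.05 and the dashed line is the median of the 15 myelin markers. In striatum no point is filled and 30 intervals lie right of the dashed line at -0.68; in cerebellum the filled points are Ebp, Srebf2, Scd1 and Scd2.

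The medians of the sterol enzymes and of the fatty acid genes of striatum lay on opposite sides of 0. Of the 17 sterol synthesis enzymes 13 were above 0, with a median of 0.13, and 0 passed the test. Of the 8 fatty acid genes 7 were below 0, with a median of -0.23, and 0 passed. Both medians leaned on WT replicate 1, which had the lowest sterol enzyme levels and the highest fatty acid gene levels of the 3 WT libraries. That library also stood apart over all genes: the chi-square over its degrees of freedom between its counts and those of the other WT striatal libraries was 28.6 and 28.2, where all other replicate pairs lay between 6.18 and 12.1. In it Fdps, the farnesyl diphosphate synthase, stood at 9.67 CPM against 17.3 and 16.9 in the other WT libraries, and the desaturase gene Scd1 at 353 against 213 and 252 CPM. Of the 50-base words of Fdps, 15.5% also occur in other genes. Without WT replicate 1 the sterol median was 0.04, with 11 of 17 above 0, and the fatty acid median -0.09. Without cKO replicate 2 the sterol median was 0.07, also with 11 of 17 above 0, and the fatty acid median -0.25. The myelin median was -0.64 without WT replicate 1, and 7 of the 15 markers then passed.

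Among the striatal sterol enzymes Tm7sf2, a sterol reductase that acts just after the demethylation of lanosterol, had the largest log2 fold change. Its level was 7, 9.54 and 6.81 CPM in WT and 11.4, 13.2 and 10.1 CPM in cKO libraries. Every cKO library stood above every WT library, a separation in that direction that 7.05% of all genes showed and 1 of the 31 did. The log2 fold change was 0.57 ± 0.18 (SE), with an unadjusted p = 0.013 and an edgeR adjusted p = 0.478. With all 4 groups in 1 model, which takes the spread from all 14 libraries, the edgeR adjusted p was 0.0387. Nsdhl, which removes methyl groups from the sterol ring, stood at 13.2, 17.6 and 15.2 CPM in WT and 16.7, 20.2 and 20 CPM in cKO libraries. These groups overlapped, and its log2 fold change was 0.30 ± 0.15 (SE) with an edgeR adjusted p = 0.725.

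The other sterol enzymes of striatum had log2 fold changes from -0.09 (Hsd17b7, a ketoreductase of the sterol ring) to 0.35 (Mvd, the mevalonate diphosphate decarboxylase), each with an interval that included 0. Hmgcs1, the HMG-CoA synthase that opens the mevalonate branch, stood at 171, 166 and 195 CPM in WT and 180, 217 and 193 CPM in cKO libraries. The 3 genes of squalene synthesis and ring closure, Fdft1, Sqle and Lss, had values of 0.18, 0.13 and 0.23. Ebp, the isomerase that moves a double bond of the sterol ring, was at -0.04 ± 0.15 (SE).

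On the fatty acid side of striatum the elongase gene Elovl1, which extends very-long-chain saturated fatty acids, stood at 22.3, 19.9 and 19.8 CPM in WT and 18.9, 16.3 and 15.2 CPM in cKO libraries. The groups did not overlap, and the log2 fold change was -0.30 ± 0.13 (SE), with an unadjusted p = 0.0446 and an edgeR adjusted p = 0.676. Elovl5, an elongase of polyunsaturated fatty acids, and Stard4, which carries cholesterol between membranes, also had every cKO library below every WT library. Such a separation was seen in 3 of the 31 genes and in 7.98% of all genes.

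Stard4 was at 23.6, 22.9 and 22.4 CPM in WT striatum and 17.4, 19.7 and 21.4 CPM in cKO striatum, a log2 fold change of -0.24 ± 0.12 (SE) with an edgeR adjusted p = 0.732. The desaturases, which place the double bond in stearoyl-CoA, showed overlapping groups. Scd2, the most abundant gene of the list, ranged from 2180 to 2960 CPM in WT and from 1990 to 2380 CPM in cKO libraries. Its log2 fold change was -0.24 ± 0.13 (SE), with an edgeR adjusted p = 0.752, and that of Scd1 was -0.35 ± 0.18 (SE), with an edgeR adjusted p = 0.738. Fasn and Acly, the fatty acid synthase and the citrate lyase that feeds it with acetyl-CoA, were at -0.03 ± 0.11 (SE) and 0.02 ± 0.10 (SE).

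None of the 5 control genes passed in striatum, by edgeR or at an unadjusted p under 0.05. Srebf2 stood at 309, 272 and 303 CPM in WT and 247, 279 and 279 CPM in cKO libraries. The lowest WT library lay within the cKO range, and the log2 fold change was -0.14 ± 0.09 (SE) with an edgeR adjusted p = 0.778. Srebf1, Scap, Insig1 and Insig2 had log2 fold changes between -0.02 and 0.07.

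In cerebellum, 4 of the 31 genes fell and 0 rose: Srebf2, Ebp, Scd1 and Scd2. That is 12.9% of the list, where 7.59% of the 14775 genes tested passed in either direction, 4.96% fell and 2.63% rose. At an unadjusted p under 0.05 there were 9 of the 31 against 22.5% of all genes: 8 were lower, against 12.6%, and 1 higher, against 9.92%. Each fall was small, to between 81.7% and 90.4% of the WT level. The count of 4 was 1, Srebf2, with all 4 groups in 1 model, and 2 without WT replicate 3 or cKO replicate 1, 2 or 4. The median log2 fold change of the 31 was -0.04, with 18 below 0, and that of all genes 0.00, with 48.4% below 0. The myelin markers had a median of -0.19 in the same libraries. All 15 were below 0, and 8 of them fell, among them Ermn, Mal, Cldn11 and Mog. The count was 5 without WT replicate 3, WT replicate 4 or cKO replicate 2, and 11 without WT replicate 1. Their summed level was 5530 to 6100 CPM in WT and 4830 to 5360 CPM in cKO libraries.

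Srebf2, the gene of the main sterol-sensing transcription factor (chr15:82147181-82205379, plus strand, GRCm38), was the member with the lowest p. Its level was 152, 151, 159 and 141 CPM in WT cerebellum and 120, 113, 135 and 120 CPM in cKO cerebellum. The highest cKO library lay below the lowest WT library. The means were 151 ± 7.34 and 122 ± 9.25 CPM (SD, n = 4 each), and the log2 fold change was -0.29 ± 0.05 (SE), or 81.7% of WT, with an edgeR adjusted p = 0.00322. It passed in each of the 8 fits that left out 1 library, with adjusted p from 0.000104 to 0.0174. Its relative Srebf1 did not pass in the same libraries. Srebf1 stood at 59.5, 60.9, 61.5 and 60.1 CPM in WT and 60.4, 57.9, 62.2 and 64.1 CPM in cKO libraries, a log2 fold change of 0.03 ± 0.04 (SE), with an edgeR adjusted p = 0.737 and a 95% interval from -0.06 to 0.12.

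Ebp (chrX:8185329-8193512, minus strand) was the sterol enzyme that fell. Its level was 26.5, 24.3, 28 and 27.4 CPM in WT and 22.2, 23.3, 23.2 and 21.8 CPM in cKO libraries, with no overlap. The log2 fold change was -0.22 ± 0.06 (SE), with an edgeR adjusted p = 0.0245. It passed in 4 of the 8 fits that left out 1 library, with adjusted p up to 0.0995, and not without WT replicate 3 or 4 or cKO replicate 1 or 4.

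The desaturases Scd1 (chr19:44394455-44407879, minus strand) and Scd2 (chr19:44293674-44306864, plus strand) are neighbouring genes. Scd2 stood at 1950, 1960, 1950 and 1910 CPM in WT and 1690, 1660, 1780 and 1830 CPM in cKO libraries. The WT libraries lay close together, all above the cKO libraries, and the log2 fold change was -0.15 ± 0.04 (SE), with an edgeR adjusted p = 0.027. Scd1 was at 235, 250, 217 and 223 CPM in WT and 203, 190, 212 and 210 CPM in cKO libraries. These groups did not overlap either, and its log2 fold change was -0.17 ± 0.05 (SE), with an edgeR adjusted p = 0.0325. Scd2 passed in 4 and Scd1 in 3 of the 8 fits that left out 1 library, with adjusted p up to 0.119 and 0.0933. Scd2 was lost without WT replicate 2 or 3 or cKO replicate 1 or 2, and Scd1 without WT replicate 1 or 2 or cKO replicate 1, 2 or 4. The Scd1 call was also lost with limma-voom, at an adjusted p of 0.0505, and with all 4 groups in 1 model, at 0.634 by edgeR; Scd2 was at 0.501 in the latter. Of the 50-base words of their transcripts, 4.56% of those of Scd1 and 3.75% of those of Scd2 also occur in other genes, mostly in each other and in Scd3 and Scd4, so counts of reads from these stretches are uncertain.

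**Figure D2:**
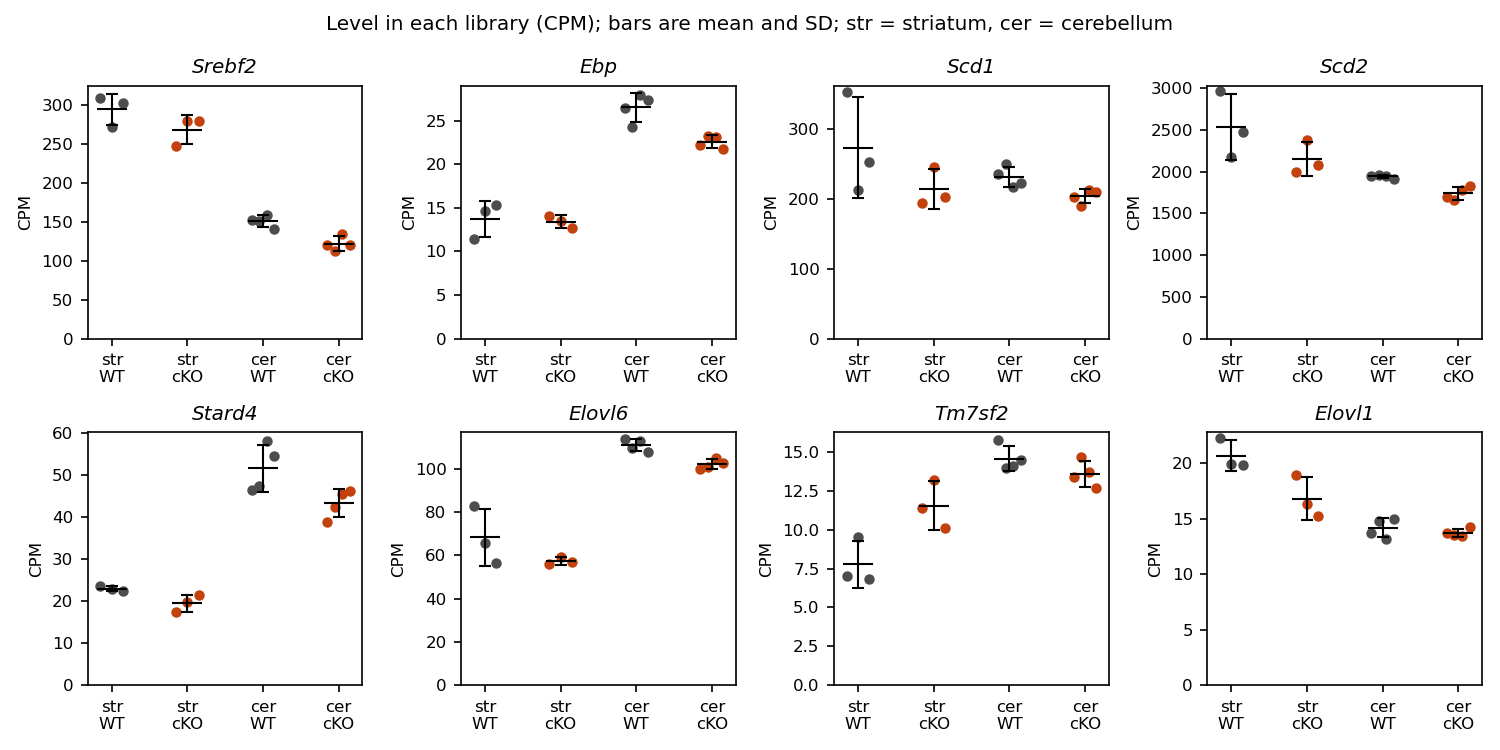
Level in CPM of 8 of the genes in each library of the 4 groups (str, striatum; cer, cerebellum), with the group mean and SD as bars. In cerebellum every cKO point of Srebf2, Ebp, Scd1, Scd2, Stard4 and Elovl6 lies below every WT point; in striatum that holds for Elovl1 and Stard4, and Tm7sf2 has every cKO point above every WT point.

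Separation of the groups in the cerebellum went in 1 direction within the list. Every cKO library lay below every WT library in 8 of the 31 genes, against 9.35% of all genes, and 0 of the 31 showed the reverse, against 5.06%. Besides those that passed, these were Elovl6, Fasn, Stard4 and Lss. Elovl6, which extends palmitate, stood at 114, 110, 113 and 108 CPM in WT and 100, 101, 105 and 103 CPM in cKO libraries. Its log2 fold change of -0.11 ± 0.03 (SE) had an edgeR adjusted p = 0.0555.

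Stard4 stood at 46.5, 47.5, 58.1 and 54.6 CPM in WT and 38.9, 42.5, 45.6 and 46.3 CPM in cKO libraries, a log2 fold change of -0.24 ± 0.08 (SE) with an edgeR adjusted p = 0.0798. DESeq2 gave adjusted values under 0.05 for both Elovl6 and Stard4, where edgeR did not. Fasn was at -0.12 ± 0.04 (SE), with an edgeR adjusted p = 0.0788, and Lss, which closes the sterol rings, at -0.14 ± 0.07 (SE), with an edgeR adjusted p = 0.213.

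Of the 7 mevalonate genes 0 passed the test in cerebellum, and their median log2 fold change was 0.01. Hmgcs1 stood at 149, 139, 142 and 145 CPM in WT and 151, 146, 153 and 153 CPM in cKO libraries. Its log2 fold change of 0.08 ± 0.03 (SE) was the only one of the 31 above 0 at an unadjusted p under 0.05, and its edgeR adjusted p was 0.139. The other mevalonate genes ran from -0.22 (Idi1, at 1.27 to 2.21 CPM) to 0.10 (Pmvk, the phosphomevalonate kinase). Scap, Insig1 and Insig2 had log2 fold changes of 0.00, -0.08 and 0.02. Acly, Acaca and Elovl5 were between -0.02 and 0.04.

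For 18 of the 31 cerebellar genes, 10 of the 17 sterol enzymes among them, the 95% interval lay wholly above the myelin median of -0.19. The median SE over the list was 0.05. These intervals too are for whole tissue and do not bound the change within oligodendrocytes alone.

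**Figure D3:**
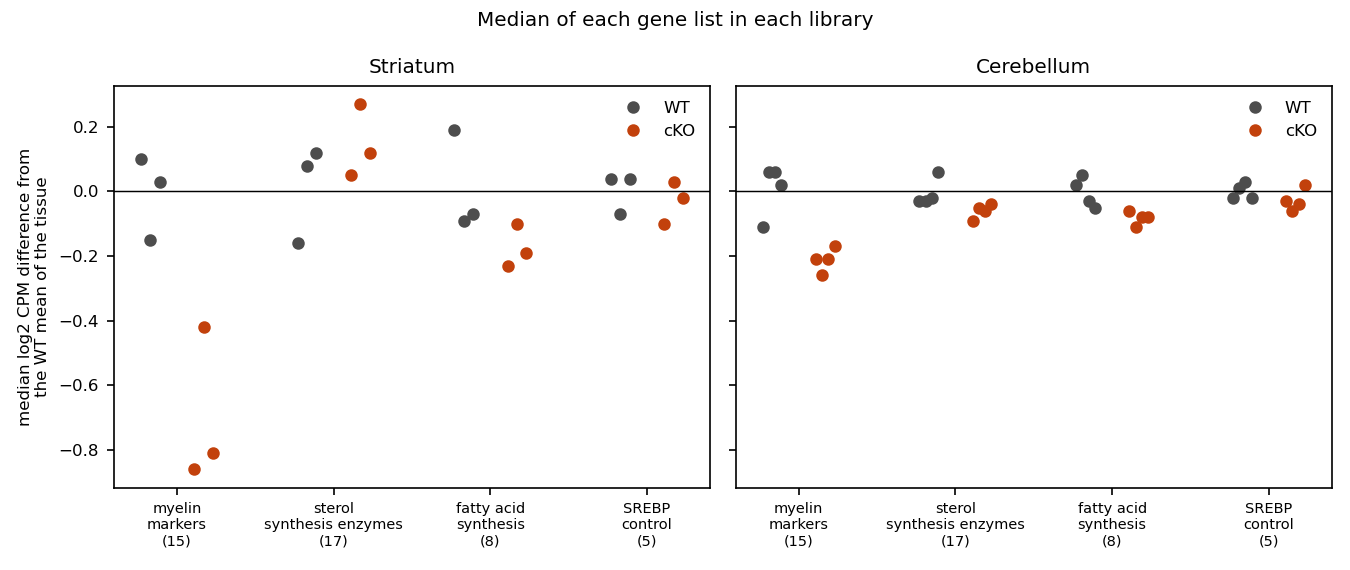
Median log2 CPM difference from the WT mean of the tissue over the genes of each list (number of genes in brackets), 1 point per library. In striatum the cKO points of the myelin markers lie between -0.86 and -0.42 while those of the sterol enzymes lie between 0.05 and 0.27; in cerebellum the myelin points of the cKO libraries lie between -0.26 and -0.17 and those of the sterol enzymes between -0.09 and -0.04.

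The difference between the tissues was tested as an interaction in a model of all 4 groups, coded so that a positive value means a higher log2 fold change in cerebellum than in striatum. None of the 31 genes passed, where 60 of 15401 genes did (0.39%), and 2 of the 31 had an unadjusted p under 0.05, against 11.6% of all genes. These were Tm7sf2 and Lss. For Tm7sf2 the interaction was -0.67 ± 0.17 (SE), with an edgeR adjusted p = 0.122: its level in the cerebellum was 15.8, 14, 14.1 and 14.5 CPM in WT and 13.4, 14.7, 13.7 and 12.7 CPM in cKO libraries, where the groups overlapped. DESeq2 passed this interaction, with an adjusted p of 0.0215, as did the fit without striatal WT replicate 2, at 0.0189. For Lss it was -0.39 ± 0.15 (SE), with an edgeR adjusted p = 0.32.

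Of the 31 genes 21 had an interaction below 0, where 53.2% of all genes did. The 17 sterol enzymes had a median interaction of -0.17, with 15 below 0, and the 8 fatty acid genes one of 0.12. Both rested on striatal WT replicate 1: without it the sterol median was -0.05, with 13 below 0, and the fatty acid median turned to -0.03, with 5 of 8 below 0. Without striatal cKO replicate 2 the sterol median was -0.11. The myelin markers had a median interaction of 0.49, all 15 above 0, and Mal and Gpr37 passed. None of the 15 passed without striatal cKO replicate 1 or 3, cerebellar WT replicate 1 or 4, or cerebellar cKO replicate 1 or 4, and 1 passed without striatal WT replicate 3, cerebellar WT replicate 2 or 3, or cerebellar cKO replicate 2 or 3. The count was 4 and 5 without striatal WT replicate 1 and 2, and 6 without striatal cKO replicate 2. The median stayed between 0.42 and 0.65 in these fits. For Srebf2 the interaction was -0.17 ± 0.10 (SE), with an edgeR adjusted p = 0.533, so a difference between its fall in the cerebellum and its striatal value of -0.14 was not shown.

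The WT libraries alone gave the level of each gene in the 2 regions. Of the 31 genes 19 differed between WT striatum and WT cerebellum (61.3%, where 64.2% of 15031 genes did). Of these, 11 were higher in striatum, against 31.5% of all genes, and 8 higher in cerebellum, against 32.7%. Tissue and depth cannot be told apart in this comparison, since all cerebellar libraries held more counts.

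Of the 8 fatty acid genes 5 were higher in striatum (Acly, Fasn, Elovl1, Elovl5 and Scd2) and 1 lower (Elovl6), with a median log2 difference of 0.41. Of the 5 control genes 3 were higher (Srebf2, Srebf1 and Scap) and 1 lower (Insig1). Of the 7 genes from lanosterol to cholesterol 0 were higher and 3 lower (Ebp, Tm7sf2 and Sc5d). Of the 7 mevalonate genes Acat2 and Hmgcs1 were higher and Mvd lower. The myelin markers had a median of 0.65 in the same comparison, with 11 of 15 higher in striatum.

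The largest difference towards striatum was that of Acat2, which joins acetyl-CoA units at the start of the pathway. It stood at 31.4 to 37 CPM in striatum and 15.9 to 18.2 CPM in cerebellum, a log2 difference of 1.05 ± 0.09 (SE), with an edgeR adjusted p = 5.13e-06. Of the 50-base words of Acat2, 39.1% also occur in other genes, chiefly Acat3 and Tcp1, so its level depends on how shared reads were counted. Srebf2 was at 272 to 309 CPM in striatum and 141 to 159 CPM in cerebellum, or 1.96-fold, with an edgeR adjusted p = 1.63e-06. Acly, at 343 to 401 against 184 to 207 CPM, and the squalene synthase Fdft1, at 46 to 62.9 against 27.1 to 31.7 CPM, had log2 differences of 0.94 ± 0.08 (SE) and 0.91 ± 0.10 (SE). Over 774 bases of its exons Fdft1 overlaps Ctsb, a gene on the opposite strand, and no label says whether counting used strand.

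In the other direction Stard4 differed the most, at 22.4 to 23.6 CPM in striatum and 46.5 to 58.1 CPM in cerebellum, a log2 difference of -1.17 ± 0.10 (SE), with an edgeR adjusted p = 4.63e-06. Insig1, the SREBP anchor that is itself a target of the SREBPs, stood at 31.1 to 39.4 against 64 to 82.3 CPM, or 49.6% of the cerebellar level, while Srebf2 lay the other way. Ebp was at 11.4 to 15.3 against 24.3 to 28 CPM, and Tm7sf2 at 6.81 to 9.54 against 14 to 15.8 CPM. Their log2 differences were -0.94 ± 0.11 (SE) and -0.90 ± 0.14 (SE). The groups did not overlap for any of these genes. Such a separation was seen in 10 of the 31 genes in this direction, against 34.5% of all genes, and in 11 in the other, against 31.3%.

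Per kilobase of exon, levels of different genes can be set side by side, but only roughly. The length was that of all exon bases annotated for a gene over all its transcripts. Which transcripts were in use was not measured, and the SDs do not cover this. Scd2 was the most abundant in both WT tissues, at 464 ± 72.3 CPM per kb in striatum (SD, n = 3) and 355 ± 3.77 in cerebellum (SD, n = 4), with Scd1 far below it at 55.7 ± 14.8 and 47.3 ± 2.97 CPM per kb. In striatum Acly, at 70.3 ± 5.58 CPM per kb, came next after Scd2 in the order, and its spread overlapped that of Scd1. Elovl5, Srebf2, Fasn and Hmgcs1 followed at 44.1 ± 1.9, 41 ± 2.75, 39.8 ± 3.41 and 38.5 ± 3.36 CPM per kb, and neighbours in that order did not differ beyond their SDs.

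In cerebellum Scd1 stood second, then Acly at 36.8 ± 2.16, Elovl5 at 32.8 ± 1.25 and Hmgcs1 at 31.3 ± 0.941 CPM per kb. The SDs of Elovl5 and Hmgcs1 overlapped. Srebf2 exceeded Srebf1 in both tissues, at 41 ± 2.75 against 15.4 ± 0.655 CPM per kb in striatum and 21 ± 1.02 against 10.7 ± 0.156 in cerebellum. Idi1 was the lowest in both, at 0.357 ± 0.0494 and 0.522 ± 0.0811 CPM per kb. Of its 50-base words 17.7% also occur in other genes, so its level depends on how shared reads were counted.

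**Figure D4:**
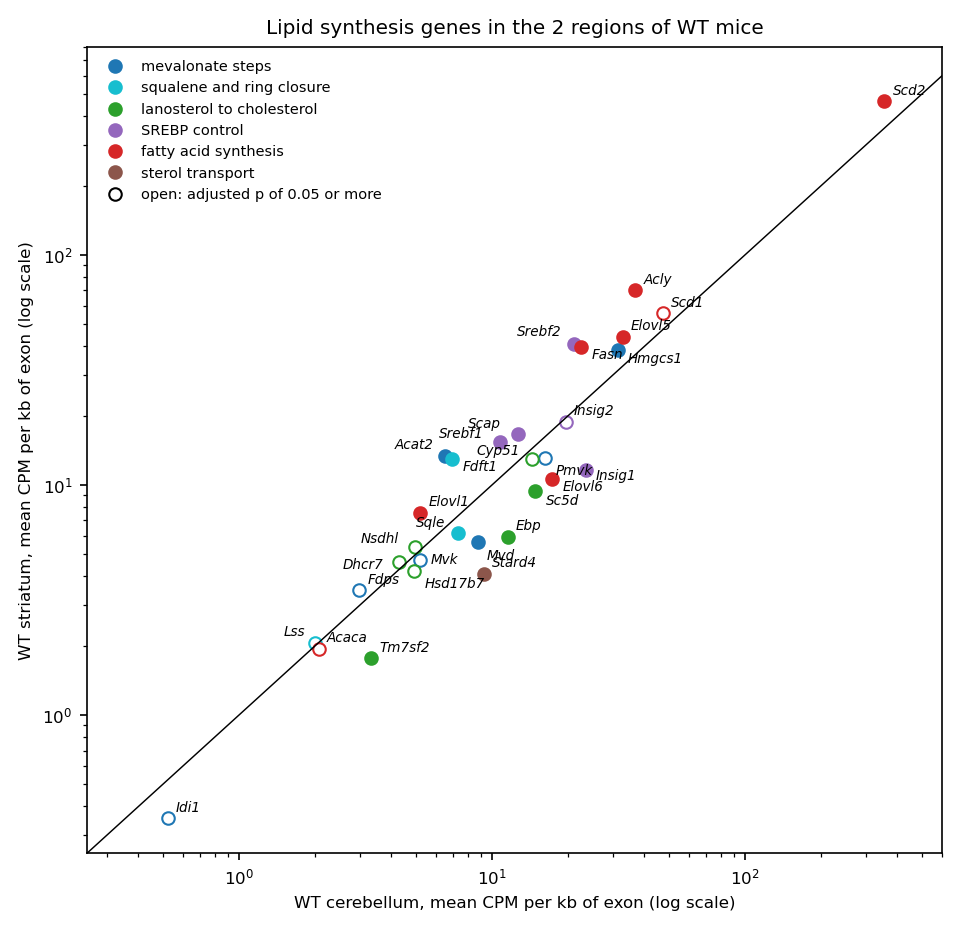
Mean level per kilobase of exon of each gene in WT cerebellum (horizontal, 4 libraries) and WT striatum (vertical, 3 libraries), both on log scales, with the line of equal levels; filled points passed an adjusted p of 0.05. Acat2, Fdft1, Srebf2 and Acly lie above the line, Stard4, Insig1, Ebp and Tm7sf2 below it, and Scd2 stands alone at the top at 464 CPM per kb in striatum.

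Other genes of the pathway were read from lists that complete it. In cerebellum 2 of 7 further sterol synthesis genes passed, where 7.59% of all genes did. Aacs, which makes acetoacetyl-CoA from ketone bodies, stood at 38.3 to 43.3 CPM in WT and fell to between 33.2 and 35.2 CPM in cKO libraries, a log2 fold change of -0.24 ± 0.05 (SE), with an edgeR adjusted p = 0.00562. Acat1, the mitochondrial thiolase, rose by 0.13 ± 0.03 (SE), with an edgeR adjusted p = 0.0256. Of 11 further SREBP and LXR control genes 0 passed in cerebellum by edgeR, and 3 had an unadjusted p under 0.05, against 22.5% of all genes. Of 13 sterol transport genes tested 2 passed. The sterol exporter Abca1 stood at 85.4 to 92.9 CPM in WT and rose to between 106 and 110 CPM in cKO libraries, a log2 fold change of 0.26 ± 0.04 (SE) with an edgeR adjusted p = 0.000175. Lcat, which esterifies cholesterol on lipoproteins, fell by 0.22 on the log2 scale (edgeR adjusted p = 0.0127). Of 23 further fatty acid genes 1 passed, Elovl2, at -0.25 ± 0.07 (SE).

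Cell type markers moved beside these cerebellar changes. Among 12 astrocyte markers Gfap (log2 fold change 0.81), Aqp4 (0.53) and Gja1 (0.25) rose, and S100b (-0.23) and Slc1a3 (-0.20) fell. The summed level of the 12 was 7080 to 7460 CPM in WT and 6940 to 7690 CPM in cKO libraries. The precursor marker Pdgfra rose by 0.26, the only one of 9 to pass. Of the microglia, endothelial and choroid plexus markers 0 passed by edgeR, with 2, 0 and 0 at an unadjusted p under 0.05. Among 11 cerebellar neuron markers 2 passed, 1 higher and 1 lower, where 7.59% of all genes passed. At an unadjusted p under 0.05 there were 8 of the 11, 6 lower and 2 higher, against 22.5% of all genes. Their summed level was 14800 to 15800 CPM in WT and 14900 to 16100 CPM in cKO libraries. What part the mix of cells had in the values of the 31 genes was not tested.

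Among 7 genes of myelin lipid synthesis, Fa2h, which hydroxylates the fatty acids of myelin sphingolipids, fell in both tissues. It stood at 71.4, 51.9 and 60.5 CPM in WT striatum and 31.3, 36.4 and 35.1 CPM in cKO striatum. In cerebellum it was at 34, 39.5, 36.6 and 38.4 CPM in WT and 28.6, 25.9, 29.1 and 28.6 CPM in cKO libraries. The log2 fold changes were -0.84 ± 0.13 (SE), with an edgeR adjusted p = 0.0431, and -0.39 ± 0.06 (SE), with an edgeR adjusted p = 0.0003. Over all genes only 1 fell in striatum without cKO replicate 1, and 1 without cKO replicate 3. The striatal call of Fa2h may therefore not hold in those fits. Ugt8a, which makes galactosylceramide, was at -0.82 ± 0.15 (SE) in striatum, with an edgeR adjusted p = 0.08. The serine palmitoyltransferase genes Sptlc1 and Sptlc2, which start sphingolipid synthesis in all cells, were at -0.14 and 0.08 in striatum.

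In striatum 0 of the 7 further sterol genes, 0 of 11 control genes, 0 of 13 transport genes and 0 of 23 further fatty acid genes passed by edgeR. At an unadjusted p under 0.05 there were 0, 1, 0 and 4 of them, against 7.24% of all genes. The genes with the lowest p of each list, with their log2 fold changes, were Acat1 (0.20), Nr1h3, the gene of the oxysterol receptor LXR alpha (0.74), Vldlr (-0.21) and the very-long-chain elongase gene Elovl7 (-0.52).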

How the data were processed

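The count files hold raw read counts per gene, deposited by the authors as 1 whole-number column per library; the submitters' processing notes name cutadapt 1.13, STAR, HTSeq 0.6.1p1, DESeq2 and the mouse build mm10, without the annotation or the strand setting. RNA came from frozen microdissected tissue, per the labels' protocols. Levels are CPM with TMM factors over all 14 libraries. Tests were edgeR 4.0.16 (R 4.3.3) quasi-likelihood tests, robust, after filterByExpr (minimum count 10, minimum total 15), within 1 tissue or over all 4 groups for the interaction, with Benjamini-Hochberg adjustment over all tested genes and a threshold of 0.05. Each SE is the log2 fold change divided by the root of F, and 95% intervals use the quasi-likelihood degrees of freedom. The fits were run on simulated counts with changes larger than the falls of the members in cerebellum, so those runs do not bear on falls that small. Replicates are samples that the labels number. They are not stated to be separate mice, so the spread behind each p-value may be technical. No 2 replicates agreed within sampling noise (chi-square per degree of freedom from 6.18 to 28.6). Library totals of 12595941 to 28099205 counts limit precision for genes of low CPM.

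The 31 genes, the other pathway and marker lists and the promoter motifs were chosen with earlier results of these data known, and so support nothing by their choice. Genes named with values in every library were Thap1, those that passed in a genotype comparison, the 5 with the lowest p in each tissue, the 4 with the largest WT region difference in each direction, the most abundant one, and Srebf1 and Srebf2. Fasn, Fdps, Hmgcs1, Lss and others named beyond these were picked after their values were seen. Positions and exon lengths are from GENCODE vM21 (GRCm38); 89.8% of the files' gene names matched it by symbol and 8.22% by synonym. Alternatives were other size factors, other filters, DESeq2 1.42.0, limma-voom (limma 3.58.1), a replicate block, an exon length correction, 1 model for all groups, a threshold of 0.1 and leaving out each library. Leaving out libraries for the list medians was added after seeing the data.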

Additional observations from a re-analysis of the deposited data

Results flagged for a closer look

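Among 62 groups of 4 libraries (31 genes, WT and cKO cerebellum), 1 held a library far from the rest. Acat2 in WT cerebellum replicate 4 stood at 18.2 CPM, while the other 3 WT libraries lay between 15.9 and 16 CPM. The gap to the nearest library was 0.919 of the whole range, above Dixon's 95% critical value for 4 values. Chance alone flags about 1 in 20 such groups. Acat2 shares sequence with other genes, as given above.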

How the results depend on the processing

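In striatum 54 genes passed. The count was 153 with DESeq2, 178 with limma-voom, 15 with the replicate block, 89 with the exon length trend removed, 376 with all 4 groups in 1 model and 87 at a threshold of 0.1. Leaving out 1 library gave 3 to 122, the lowest without cKO replicate 1 or 3 and the highest without WT replicate 1. The count of the 31 genes that passed stayed at 0 except with all groups in 1 model, where Tm7sf2 made it 1. In cerebellum 1121 genes passed, 251 with all groups in 1 model, 1773 at a threshold of 0.1, and 739 to 1165 without 1 library. The 4 of the 31 became 1 with all groups in 1 model, where Srebf2 remained, 7 at a threshold of 0.1, and 2 to 4 without 1 library, with 2 left without WT replicate 3 or cKO replicate 1, 2 or 4. For the interaction 60 genes passed, 228 with DESeq2, 13 with the replicate block, 116 at a threshold of 0.1 and 17 to 193 without 1 library. Of the 31, 1 passed with DESeq2, and 0 to 1 without 1 library. The cause of these shifts was not tested, apart from the looser threshold. Same-numbered WT and cKO libraries had correlated deviations of 0.20, 0.14 and 0.08 in striatum and 0.28, 0.09, 0.11 and 0.25 in cerebellum. For WT and cKO libraries of different number, the striatal values lay between -0.17 and 0.10. The cerebellar ones had a lowest value of -0.54 and a highest of 0.42. All same-numbered values were thus above 0, but not every library correlated best with its own number. Because these ranges overlap, the check could not decide whether the numbers pair the samples. With the replicate block the 31 genes still gave 0, 4 and 0 calls in striatum, cerebellum and the interaction, but Scd1 was lost (edgeR adjusted p = 0.105) and Stard4 gained. The counts for the WT regions stayed within 1.5 times under every alternative listed in the methods. Depth limits Idi1, at under 2.5 CPM, the most, and Idi1 also shares sequence with other genes, as given above.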
